A study of Caenorhabditis elegans with 6 samples.

Results

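The 10 genes described here encode 9 acyl-CoA dehydrogenases of *C. elegans* (*acdh-2*, *acdh-3*, *acdh-7*, *acdh-8*, *acdh-9*, *acdh-10*, *acdh-11*, *acdh-12* and *acdh-13*) and the carnitine palmitoyltransferase CPT-1. They were chosen by gene family name, out of 46904 gene identifiers in the count table, and the choice was made with the results of the control and CGP37157 comparison of these libraries already known. Their differences between the groups are therefore a description. The family has 13 *acdh* genes in the table, and *acdh-1*, *acdh-4*, *acdh-5* and *acdh-6* are not among the 10. Of the 6 *cpt* genes in the table, only *cpt-1* is among them.

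Gene expression was measured by RNA sequencing of poly(A) RNA from whole worms of N2, the wild-type laboratory strain, grown at 20 °C on plates seeded with *E. coli* OP50. Young adults were moved to fresh plates every day, either control plates or plates with 50 µM CGP37157, an inhibitor of the mitochondrial Na+/Ca2+ exchanger, and RNA was taken at day 5 of treatment. There were 3 control libraries and 3 CGP37157 libraries, and no agent other than CGP37157 is named for either group in the labels. The libraries are labelled as replicates without stating whether they came from separate cultures, so the p-values measure the spread between these libraries.

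Acyl-CoA dehydrogenases are flavoproteins that place the first double bond in an acyl-CoA and so open each round of beta-oxidation. Members of the family differ in the chain they accept, from very long and medium straight chains to the short branched chains left by the breakdown of valine, isoleucine and leucine. Carnitine palmitoyltransferase 1 acts upstream of them, at the outer mitochondrial membrane, where it joins long-chain fatty acids to carnitine for import.

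The CGP37157-treated worms had less *acdh-2* and *acdh-9* RNA than control worms, with every treated library below every control library and means at 44.3% and 54.7% of the mean control level, but neither difference passed the threshold in edgeR's quasi-likelihood test after adjustment over all genes. *acdh-2* passed with DESeq2, with edgeR's likelihood ratio test and without the low-count filter, and *acdh-9* in none of the settings run. The other 7 tested genes, *cpt-1* among them, had fitted log2 differences between -0.14 and 0.08 with overlapping groups. *acdh-8* was close to the limit of detection in both groups, and the low-count filter left it out of the main quasi-likelihood test. Levels are CPM, read counts divided by the library size that TMM normalization had adjusted and set on a common scale, and the plot of the level of each gene by library shows all 60 values.

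**Figure D1:**
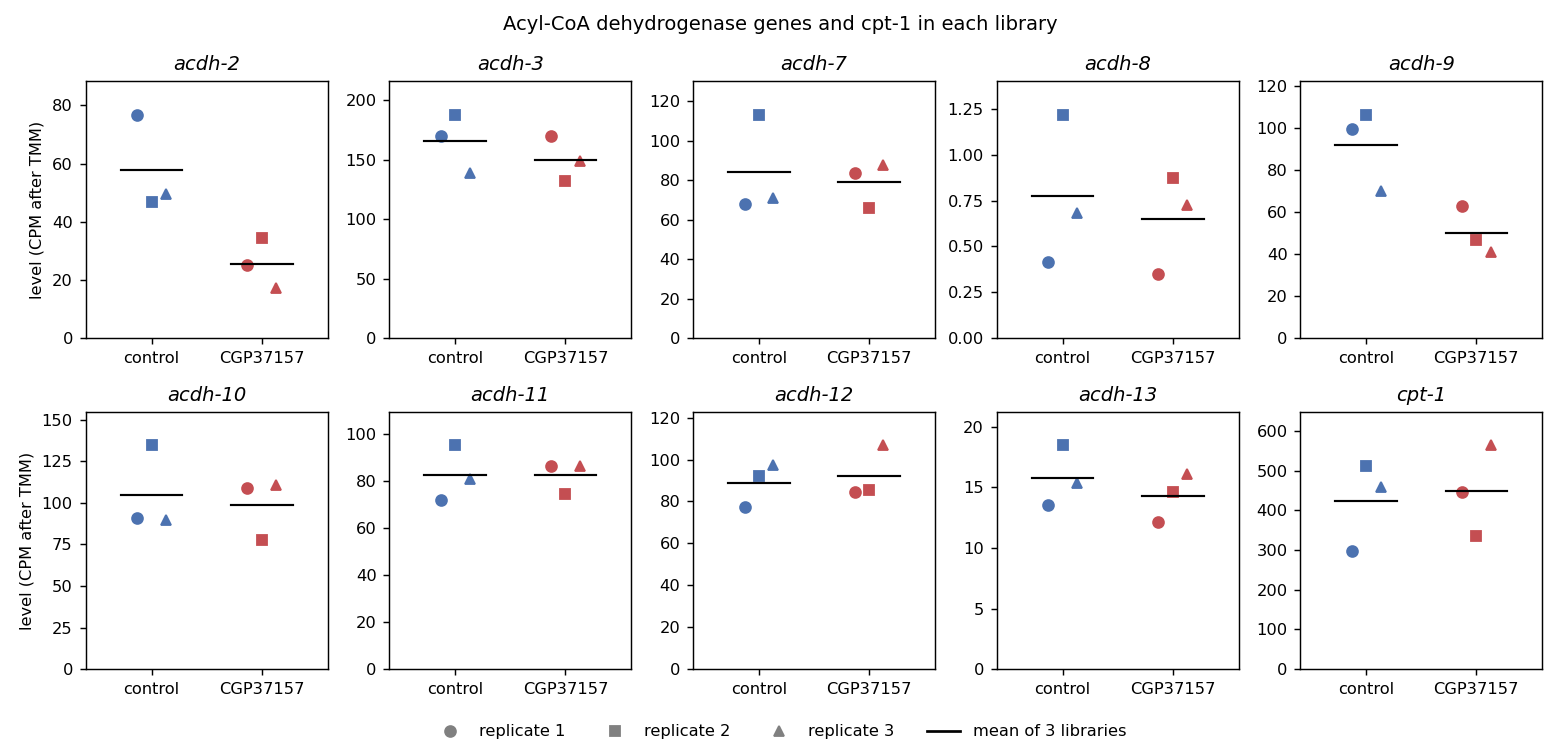
Level of each of the 10 genes (vertical axis, CPM after TMM normalization, starting at 0 and scaled per gene) in the 3 control libraries (blue) and the 3 CGP37157 libraries (red), with the replicate number as the symbol and the group mean as a black line. The groups are apart for *acdh-2* (lowest control 46.9, highest treated 34.4) and *acdh-9* (lowest control 70.3, highest treated 63.2), and overlap for the other 8 genes.

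*acdh-2* (WBGene00015894) lies on the minus strand at chrII:5544778-5547492 of WBcel235. The annotation that accompanies the study's gene lists gives human ACADSB, the dehydrogenase of short branched chains, as its ortholog and places its product in the peroxisome. Whether this member acts in mitochondria was not tested. Its levels were 76.8, 46.9 and 49.7 CPM in control replicates 1, 2 and 3, and 25.1, 34.4 and 17.2 CPM in CGP37157 replicates 1, 2 and 3. All 3 treated libraries lay below all 3 control libraries, and the highest control value came from replicate 1 alone. The means were 57.8 ± 16.5 and 25.6 ± 8.62 CPM (SD, n = 3 each), and the fitted log2 difference was -1.18 with a standard error of 0.30 and a 95% interval from -1.83 to -0.52. The adjusted p over all tested genes was 0.141 (edgeR, quasi-likelihood). DESeq2 gave an adjusted p of 0.0153, edgeR's likelihood ratio test 0.0164 and the quasi-likelihood test without a low-count filter 0.0149, so the call for this gene depended on the tool and the filter. Over the 13 alternatives the adjusted p ran from 0.0149 to 0.618 and the log2 difference from -1.45 to -0.92. The 3′ end of *acdh-2* shares 87 bases with *ins-13* on the same strand, which had a count of at most 1 in any library.

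*acdh-9* (WBGene00017874), at chrII:846864-848603 on the minus strand, is annotated as the ortholog of human ACAD8, the isobutyryl-CoA dehydrogenase of valine breakdown, in the mitochondrion. Its levels were 99.5, 107 and 70.3 CPM in the control libraries and 63.2, 46.9 and 40.9 CPM in the CGP37157 libraries. The groups did not overlap, but the lowest control library and the highest treated library were close. The means were 92.1 ± 19.2 and 50.4 ± 11.5 CPM (SD, n = 3 each), with a fitted log2 difference of -0.87, a standard error of 0.24 and a 95% interval from -1.41 to -0.34. The adjusted p in the quasi-likelihood test was 0.214, it ran from 0.0587 to 0.931 over the 13 alternatives, and the gene passed in none of them.

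Of the 9 tested genes, 0 passed an adjusted p of 0.05 in the quasi-likelihood test and 2, *acdh-2* and *acdh-9*, had an unadjusted p under 0.05. Over all 12385 tested genes the same test called 29 lower (0.234%) and 144 higher (1.16%), and 593 had an unadjusted p under 0.05. The counts of genes called lower were larger with DESeq2 (64, 0.411% of those it tested), with the likelihood ratio test (66, 0.533%) and without the filter (66, 0.301%), and 1 of the 10 genes, *acdh-2*, was among them in each. Groups that did not overlap were found for 457 of all tested genes in the lower direction (3.69%) and 477 in the higher direction (3.85%), and for 2 of the 9 genes in the lower and 0 in the higher direction. Because the genes were chosen with this comparison known, these counts are given beside the background and nothing is read from them. The median log2 difference of the 9 genes was -0.09, beside -0.01 for all tested genes.

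**Figure D2:**
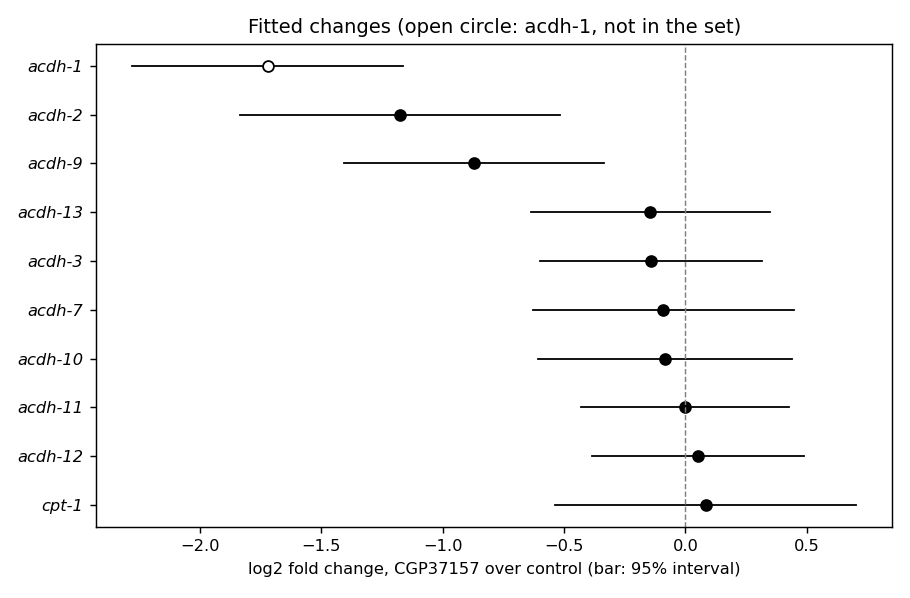
Fitted log2 fold change of CGP37157 over control (horizontal axis) with its 95% interval for the 9 tested genes (filled circles) and for *acdh-1* (open circle), a gene of the family outside the set. The intervals of *acdh-2* (-1.83 to -0.52), *acdh-9* (-1.41 to -0.34) and *acdh-1* lie below 0, and those of the other 7 genes include 0.

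The medium-chain type of the family is represented by *acdh-7*, *acdh-8* and *acdh-10*, which are related to the human medium-chain acyl-CoA dehydrogenase. *acdh-7* (WBGene00020812, chrX:17215018-17217105) and *acdh-10* (WBGene00020366, chrX:17213144-17214903) are neighbours on the minus strand, with a gap of 0.114 kilobases and no protein-coding gene between them. The levels of *acdh-7* were 68.2, 113 and 71.3 CPM in control worms and 83.5, 65.8 and 87.9 CPM in treated worms. Those of *acdh-10* were 90.9, 134 and 89.6 CPM in control worms and 109, 77.6 and 110 CPM in treated worms. Both were highest in control replicate 2 and low in CGP37157 replicate 2. The fitted log2 differences were -0.09 (95% interval -0.63 to 0.45) for *acdh-7* and -0.08 (-0.61 to 0.44) for *acdh-10*, and both turned positive without control replicate 2 (0.18 and 0.13) and without CGP37157 replicate 2 (0.03 and 0.06).

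The ratio of *acdh-7* to *acdh-10* stayed between 0.751 and 0.849 in the 6 libraries. Among the 36 pairs of the 9 tested genes this pair had the highest correlation of log2 CPM over the 6 libraries, with a Pearson r of 0.97 (exact permutation p = 0.00278, adjusted p = 0.1 over the 36 pairs) and a Spearman rho of 0.94 (exact permutation p = 0.0167, adjusted p = 0.4). Leaving out the 2 libraries farthest from the median *acdh-7* level gave an r of 0.97. The relation does not pass the correction for 36 pairs, and 3 libraries per group are too few to repeat it within a group. Whether reads were shared between these related neighbours was not tested. The lowest correlation was between *acdh-2* and *cpt-1*, with an r of -0.62 (exact permutation p = 0.192, adjusted p = 0.51) and a rho of -0.54 (exact permutation p = 0.297, adjusted p = 0.711), and it changed sign, to 0.37, without the 2 libraries farthest from the median.

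*acdh-8* (WBGene00019406, chrII:5794495-5796185, plus strand) had 10, 21 and 15 counts in the control libraries and 8, 24 and 17 counts in the CGP37157 libraries. At this depth the libraries give 0.417, 1.22 and 0.683 CPM in control worms and 0.352, 0.875 and 0.726 CPM in treated worms. The groups overlapped, and with so few counts a moderate difference was not detectable. The alternatives that kept the gene gave log2 differences of -0.178 (no low-count filter), -0.198 (filterByExpr) and -0.188 (DESeq2). It passed in none of them.

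The gene *acdh-12* (WBGene00017125, chrII:7192429-7195641, minus strand) is the member related to the human very-long-chain dehydrogenase, which acts on the chains that the carnitine route delivers. Its levels were 77.2, 92.3 and 97.5 CPM in the control libraries and 84.3, 85.5 and 107 CPM in the CGP37157 libraries. The fitted log2 difference was 0.05 (95% interval -0.39 to 0.49), which turned to -0.04 without control replicate 1 and to -0.05 without CGP37157 replicate 3. *cpt-1* (WBGene00012907, chrII:12788244-12796452, minus strand) had 299, 512 and 459 CPM in control worms and 447, 335 and 563 CPM in treated worms. The lowest value of *cpt-1* was a control library and the highest a treated one, and both groups spread widely, with means of 423.3 ± 111.2 and 448.6 ± 114.3 CPM (SD, n = 3 each). The fitted log2 difference was 0.08 with an interval from -0.54 to 0.70, so a change of up to 1.63-fold upwards or to 0.689 of the control level lay within it, and its sign turned to -0.12 without control replicate 1 and to -0.10 without CGP37157 replicate 3.

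ACDH-11 is known in *C. elegans* for binding medium-chain fatty acids and limiting the expression of a fatty acid desaturase during heat adaptation. Its gene *acdh-11* (WBGene00012860, chrIII:10566258-10571603, plus strand) had the narrowest range of the 10 over the 6 libraries, 1.32-fold from lowest to highest. The levels were 71.96, 95.1 and 80.9 CPM in control worms and 86.5, 74.7 and 86.5 CPM in treated worms. The means were 82.7 ± 11.7 and 82.5 ± 6.83 CPM (SD, n = 3 each), and the fitted log2 difference was -0.0020 (95% interval -0.43 to 0.43), with a sign that changed under 8 of the 13 alternatives.

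The remaining members are *acdh-3* (WBGene00019433, chrI:6464195-6466941) and *acdh-13* (WBGene00001566, chrIV:8496485-8498823), both on the minus strand. *acdh-3* had 170, 188 and 139 CPM in the control libraries and 170, 132 and 149 CPM in the CGP37157 libraries, with a fitted log2 difference of -0.14 (95% interval -0.60 to 0.32). Its end shares 92 bases with *knl-2* on the opposite strand, which had between 653 and 2644 counts, and its other end overlaps *K06A5.3*, also opposite, with 7 to 15 counts. *acdh-12* shares 80 bases with *E04F6.4* in the same way (46 to 134 counts). The library kit keeps strand, but whether the counting used it is not given in the sources used here. *acdh-13* had 13.6, 18.4 and 15.4 CPM in control worms and 12.2, 14.6 and 16.1 CPM in treated worms, with a fitted log2 difference of -0.14 (95% interval -0.64 to 0.35). In both genes the groups overlapped.

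To compare levels between genes, CPM were divided by the length of the exons in kilobases. In control worms *cpt-1* had the highest level, 151 ± 39.7 CPM per kilobase, followed by *acdh-3* with 110 ± 16.5 (SD, n = 3 each). *acdh-10* had 75.9 ± 18.5, *acdh-9* 68.8 ± 14.4 and *acdh-7* 62.7 ± 18.7 CPM per kilobase. From *cpt-1* down to *acdh-7*, neighbours in this order had overlapping control libraries. *acdh-12* with 43.6 ± 5.15, *acdh-11* with 42.7 ± 6.03 and *acdh-2* with 30.9 ± 8.82 CPM per kilobase came next, and neighbours among these also overlapped. A gap without overlap separated *acdh-7* from *acdh-12*, *acdh-2* from *acdh-13* (7.86 ± 1.23) and *acdh-13* from *acdh-8* (0.572 ± 0.302). *cpt-1* was 19.2-fold above *acdh-13* and 1.37-fold above *acdh-3*.

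**Figure D3:**
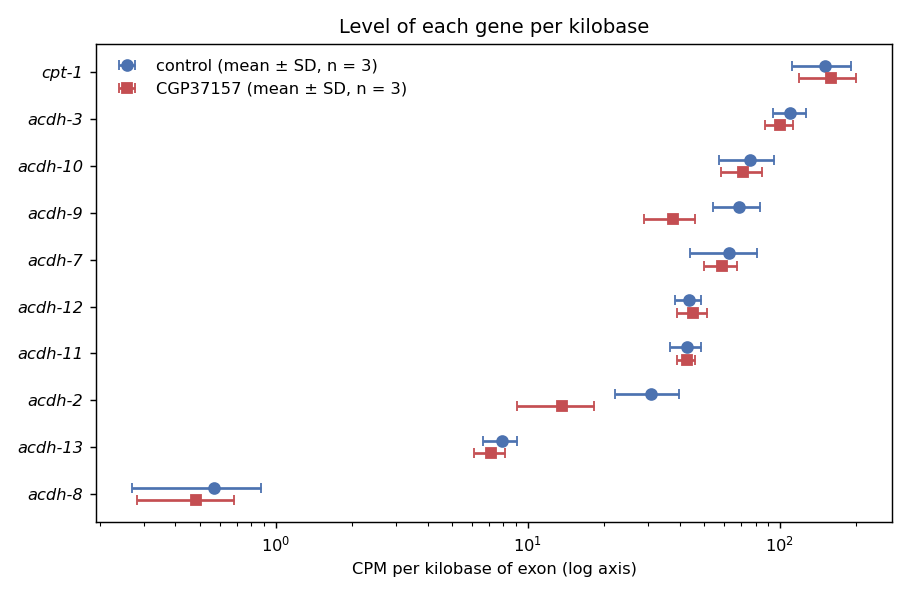
Level per kilobase of exon (horizontal log axis, CPM per kilobase) of each gene, as mean ± SD over 3 control (blue circles) and 3 CGP37157 (red squares) libraries. The genes run from *cpt-1* at 151 to *acdh-8* at 0.572 in control worms, and the symbols of the groups lie farthest apart for *acdh-2* (30.9 and 13.7) and *acdh-9* (68.8 and 37.6).

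The 9 dehydrogenase genes together had 427, 515 and 387 CPM per kilobase in the control libraries and 407, 334 and 389 CPM per kilobase in the CGP37157 libraries, and the groups overlapped. *acdh-2* and *acdh-9* made up 27.03%, 20.3% and 20.4% of this sum in control worms and 14.9%, 16.0% and 10.2% in treated worms. Without these genes the sum was 311, 411 and 308 CPM per kilobase in control worms and 346, 281 and 350 CPM per kilobase in treated worms. *acdh-2* and *acdh-9* were taken out because they had already been seen to be lower in treated worms. Their lower share follows from that choice and is not a further result. *acdh-3* held the largest share of the sum in each of the 6 libraries, between 23.9% and 27.7%.

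The depth of the libraries was 21122852 to 21245713 counts for control and 23821727 to 24551795 for CGP37157 worms, so depth and treatment cannot be told apart. Control replicate 2 stood apart from the other control libraries on the first principal component (59.0 against 11.6 and 7.09, 41.4% of the variance) and had the lowest TMM factor, 0.815. After this scaling it was the highest library for 6 of the 9 tested genes and the lowest for none. The rank depends on the scaling. *acdh-3*, for example, had 3241 counts there and 4068 in control replicate 1, a library of similar depth. Without it, the log2 differences of *acdh-2* and *acdh-9* stayed negative. The 10 genes took between 0.0968% and 0.116% of all counts of a library. The spread of the 9 tested genes between replicates was similar to that of other genes. Their median coefficient of variation was 20.9% in control and 14.8% in treated worms, beside 23.7% and 17.4% over all tested genes. *acdh-8*, which is not in these medians, had 52.8% in control and 41.5% in treated worms.

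In RNA from whole worms, fewer cells of a type and less RNA per cell cannot be told apart. Summed markers of 7 tissues or stages were present in all libraries, and the groups overlapped for each of the 7 sums. The 6 body wall muscle markers had log2 differences below 0, all short of the threshold, and their sum ran from 2469 to 4894 CPM in control and from 2203 to 3089 CPM in treated worms. The 4 pharynx markers summed to 228, 148 and 117 CPM in control and 142, 112 and 96.4 CPM in treated worms. As for *acdh-2*, control replicate 1 was highest and CGP37157 replicate 3 lowest, a likeness picked out after the values were seen. The log2 differences were -0.53 for *myo-1*, -0.56 for *myo-2*, -0.45 for *tnt-4* and 0.01 for *pha-4*, none past the threshold. *pha-4* was lowest in control replicate 3 (8.42 CPM). The 6 intestine markers had log2 differences above 0, none past the threshold, and for 2 of them, *elt-7* and *ges-1*, every treated library lay above every control library. The same held for 477 of all 12385 tested genes (3.85%), and nothing is read from these 2. The intestine sums, to which the protease gene *asp-1* gave the largest part, were 2088 to 4055 CPM in control and 2579 to 4550 CPM in treated worms. The 6 germline and oocyte markers summed to 2329, 4730 and 3866 CPM in control and 3533, 3101 and 4741 CPM in treated worms. This sum, like *cpt-1*, was lowest in control replicate 1 and highest in CGP37157 replicate 3, but control replicate 2 was nearly as high. *glh-1*, *gld-1* and *rme-2* were highest in control replicate 2 (467, 930 and 1012 CPM), and *cgh-1*, *pgl-1* and *oma-1* in CGP37157 replicate 3. *cgh-1* gave the largest part of the sum. Of the 6 log2 differences, 4 were above 0 and 2 below, none past the threshold. The part of these tissues in the levels of the genes was not tested. Sums of embryo markers (1528 to 2298 against 1579 to 2183 CPM), hypodermis markers (1035 to 1853 against 970 to 1549 CPM) and neuron markers (266 to 336 against 252 to 290 CPM) overlapped between the groups, and the log2 differences of all 6 neuron markers and of the 3 tested hypodermis markers were below 0, none past the threshold. *col-19* gave the largest part of the hypodermis sum and *snb-1* the largest part of the neuron sum. Control replicate 2 was the highest control library for *snb-1* (310 CPM). It was the lowest control library for *rab-3*, *unc-13*, *snt-1*, *unc-104* and *ric-4*. The larval cuticle genes *rol-6* and *dpy-7* and the early endoderm gene *end-1* were below 1 CPM in every library. Whether the RNA of the other embryo markers came from embryos or from the germline was not tested.

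**Figure D4:**
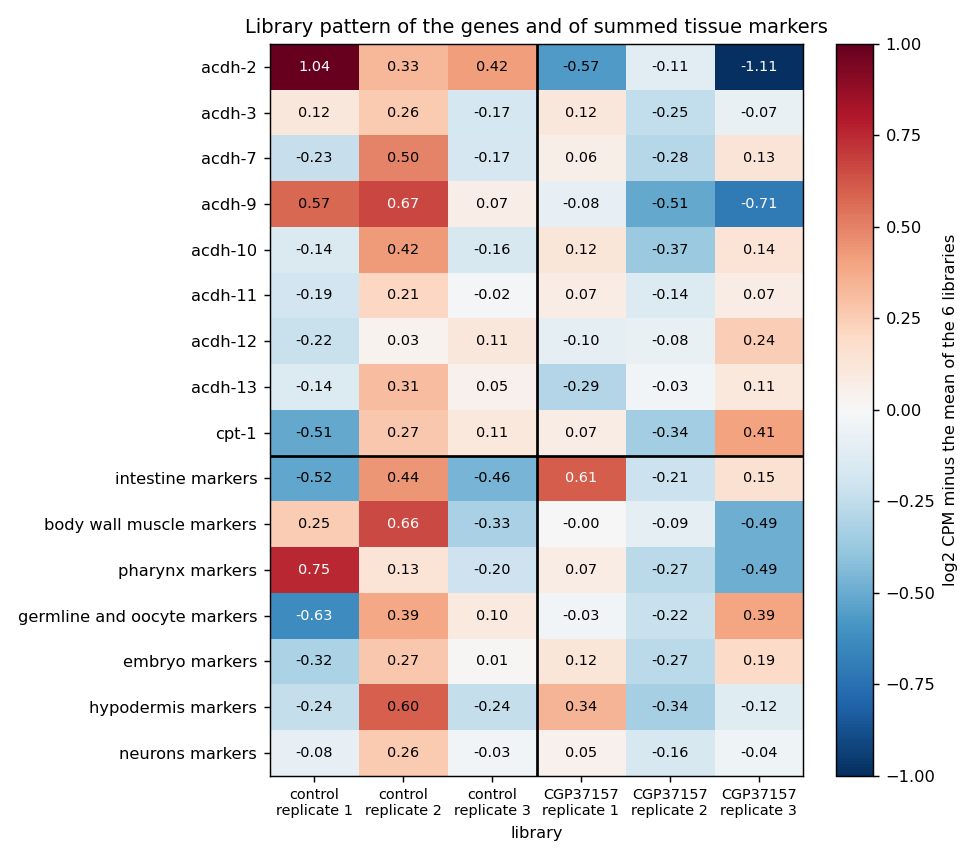
Log2 CPM minus the mean of the 6 libraries (colour and printed value) for the 9 tested genes (upper rows) and for the summed markers of 7 tissues or stages (lower rows), by library in columns. *acdh-2* runs from 1.04 in control replicate 1 to -1.11 in CGP37157 replicate 3, whereas *cpt-1* runs from -0.51 to 0.41 between the same libraries. The neuron row mostly shows *snb-1* and the hypodermis row *col-19*, the markers with the highest levels in those sums.

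Beyond the 10 genes, 33 other genes of, or related to, beta-oxidation and fatty acid import were listed, of which 32 were tested. *ivd-1* is also on the list of branched-chain amino acid genes below. In the quasi-likelihood test 1 of the 32 fell, 0 rose and 3 had an unadjusted p under 0.05, while 14 log2 differences were above 0 and 18 below, with a median of -0.02. The gene that fell was *acdh-1*, which acts in the vitamin B12-independent breakdown of propionate. It had 48.3, 60.9 and 70.4 CPM in control worms and 13.2, 20.2 and 21.0 CPM in treated worms, with no overlap, and its log2 difference was -1.72 with a standard error of 0.25 (adjusted p = 0.0048). The difference in *acdh-1* was known when the list was drawn up, so it is not independent evidence of a direction for the family.

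*cpt-5*, another carnitine palmitoyltransferase gene, had 20.0, 5.68 and 13.4 CPM in control and 5.05, 6.71 and 5.08 CPM in treated worms, with a log2 difference of -1.21 (adjusted p = 0.414 in edgeR's test). Its lowest control library was replicate 2, and without that library the difference was -1.57 with an adjusted p of 0.00994, which makes 2 genes of the list that pass. The largest log2 differences above 0 were those of *acs-2*, an acyl-CoA synthetase that is induced by fasting, and *ech-9*, an enoyl-CoA hydratase family gene. *acs-2* had 53.9, 38.8 and 11.1 CPM in control and 164, 61.3 and 6.40 CPM in treated worms, a log2 difference of 1.16 with an interval from -0.75 to 3.07. *ech-9* had 2.92, 0.464 and 1.46 CPM in control and 3.87, 4.27 and 2.73 CPM in treated worms, a log2 difference of 1.14 with an interval from 0.0095 to 2.27 (adjusted p = 1.00). The groups overlapped in both genes, and for *acs-2* the treated libraries held the lowest and the highest of the 6 values. In both groups *acs-2* fell from replicate 1 to replicate 3, and the cause of this was not tested. Of the family genes outside the set, *acdh-4* (log2 difference -0.24) and *acdh-5* (-0.57) reached at most 4.05 and 2.55 CPM without passing, and *acdh-6* reached at most 0.376 CPM and was not tested.

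Of 15 genes of branched-chain amino acid breakdown, the pathway of ACAD8, 14 were tested and 0 passed in either direction with edgeR or DESeq2, 0 had an unadjusted p under 0.05 in edgeR's test, and the log2 differences lay between -0.23 and 0.16 with a median of -0.03. The extremes were *hach-1*, the hydroxyisobutyryl-CoA hydrolase of the valine route (-0.23), *B0250.5* (-0.19), the methylmalonyl-CoA mutase gene *mmcm-1* (0.13) and the branched-chain aminotransferase gene *bcat-1* (0.16). *mccc-2* was listed at 0 in every library. *acdh-9* (log2 difference -0.87) was chosen with this comparison known. Neither it nor *acdh-2* (-1.18) nor *acdh-1* (-1.72) was on this list, so nothing is read from its distance to these 14 genes.

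Of 9 regulators of lipid metabolism or of the propionate route, all tested, 0 passed with edgeR or DESeq2 and 0 had an unadjusted p under 0.05 in edgeR's test, with a median log2 difference of -0.04. The nuclear receptor genes *nhr-68* (-0.39) and *nhr-114* (-0.33) had the lowest values and *nhr-10* (0.19) and *nhr-66* (0.07) the highest. The groups did not overlap for *sbp-1*, the sterol regulatory element binding protein gene, with 64.5, 76.0 and 66.7 CPM in control and 58.1, 52.7 and 58.0 CPM in treated worms and a log2 difference of -0.30 (unadjusted p = 0.138 in edgeR's test). It is named after its values were seen, and 457 of all 12385 tested genes (3.69%) had groups apart in this direction.

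**Figure D5:**
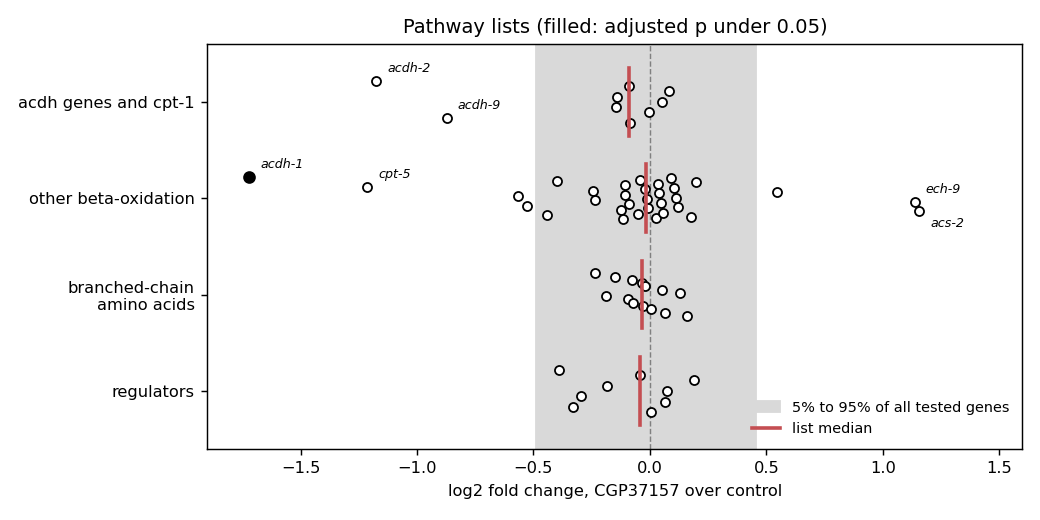
Log2 fold change of CGP37157 over control (horizontal axis) of each tested gene (circles, filled where the adjusted p was under 0.05 in edgeR's quasi-likelihood test) in the set of *acdh* genes and *cpt-1* and in 3 lists of related genes, with the list median as a red line and the range from the 5% to the 95% quantile of all tested genes, -0.49 to 0.46, shaded. *acdh-1* is the one filled circle, and *acdh-2*, *acdh-9*, *cpt-5*, *acs-2* and *ech-9*, named in the plot, are among the genes outside the shaded range that did not pass in this test with all 6 libraries. *ivd-1* is drawn in both the beta-oxidation and the branched-chain list.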

How the data were processed

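Whole-number counts for each gene and library were deposited by the authors, without normalization, in 2 tables that hold identical counts. Beside them the authors deposited scaled counts and group means (score values), and the outcome of their own comparisons, namely a fold ratio, a log2 fold change and p-values. None of these was used. The submitters' processing notes name HISAT2, featureCounts, DESeq2 and edgeR. The genome build and annotation are not given in the sources used here. Positions and exon lengths came from Ensembl release 115 (WBcel235).

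The counts were analysed in R 4.3.3 by the quasi-likelihood test of edgeR 4.0.16 after TMM normalization. A gene was tested if 3 or more libraries reached 1 CPM, which left 12385 genes, and the model held the condition alone. Benjamini-Hochberg adjustment ran over all tested genes, and an adjusted p under 0.05 was called. Alternatives were other normalizations, DESeq2 1.42.0, the likelihood ratio test, other filters, a replicate block, and each library left out in turn. The scripts were tested on simulated data. The genes and lists were chosen with earlier results of these data known. Named are the 10 genes, *acdh-1*, list genes that pass or have one of the 2 largest differences in a direction, and the extreme pairs. *sbp-1*, *acdh-4*, *acdh-5*, *acdh-6*, *mccc-2*, marker genes and overlapping genes are additions to this rule, made for a value, the gene family or a position. Depth was at least 21122852 counts per library, and counting error is large only near 1 CPM.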

Additional observations from a re-analysis of the deposited data

How the results depend on the processing

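The log2 differences of *acdh-2*, *acdh-3*, *acdh-9* and *acdh-13* stayed negative under all 13 alternatives run. For *acdh-11*, the value close to 0 turned positive with relative log expression factors (0.0238), library sizes only (0.0466), no low-count filter (0.0236), filterByExpr (0.0020), the replicate block (0.0042) and DESeq2 (0.0318). Leaving out 1 library at a time moved the log2 difference of *acdh-7* from -0.22 to 0.18, *acdh-10* from -0.19 to 0.13, *acdh-11* from -0.0927 to 0.111, *acdh-12* from -0.0525 to 0.121 and *cpt-1* from -0.12 to 0.26. The count of the 10 genes called lower went from 0 to 1 with the likelihood ratio test, with no low-count filter and with DESeq2. Over all genes, 29 were called lower, against 17 with library sizes only, 66 with the likelihood ratio test, 66 with no filter, 64 with DESeq2 and 12 to 34 with 1 library left out. Leaving out a library gave 1 to 2 beta-oxidation genes called lower. The control and the treated library of a number also share a suffix in their titles, whose meaning the labels do not state. Their residuals correlated at 0.105, -0.508 and 0.387, so the libraries were not taken as pairs. With the replicate block 20 genes were called lower and 117 higher, and 0 of the 10 (adjusted p 0.275 for *acdh-2* and 0.28 for *acdh-9*, edgeR). The cause of these shifts was not tested.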
